A study of Mus musculus with 2 samples.

Results

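Some imprinted genes lie apart from the large domains in which imprinted genes share a control region. 7 such genes, Zac1 (named Plagl1 in the annotation), Dcn, Gatm, Sfmbt2, Rasgrf1, Impact and Slc38a4, were taken by name from the 128 entries of the deposited catalog of known imprinted genes. All 7 names were found, and their exon reads, spliced reads and intron reads were counted in both deposited RNA-Seq libraries.

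The libraries were made from polyA+ RNA of E17.5 embryonic whole brains, 1 brain for each direction of a cross between the inbred mouse strains C57BL/6J and CastEi/J. The BxC embryo had a C57BL/6J mother and a CastEi/J father, and the CxB embryo had a CastEi/J mother and a C57BL/6J father. No embryo carried a mutation or received a treatment by the labels, and RNA was not pooled between brains. With 1 library for each cross, no difference between them has a replicate check, every statement is about these 2 brains, and no p-value is given.

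An imprinted gene is expressed from the copy inherited from 1 parent, through a mark set in the egg or sperm, which is DNA methylation at many of these genes and a histone mark at some. Rasgrf1 is a textbook case of a mark set in the sperm, whereas Zac1 and Impact are marked in the egg. Dcn, Gatm, Sfmbt2 and Slc38a4 are best known for imprinted expression in the placenta. Reciprocal crosses separate the parent from the strain: the paternal copy is the CastEi/J copy in BxC and the C57BL/6J copy in CxB. The catalog gives the paternal copy as the expressed one for Zac1, Sfmbt2, Rasgrf1, Impact and Slc38a4, and the maternal copy for Dcn and Gatm. The deposited alignments list no bases, so reads of the parental copies could not be separated, and all values are totals over both copies.

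The catalog placed no other entry within 1 Mb of 6 of the 7 genes. Impact was its only entry on chromosome 18. The nearest other entry to Zac1 on chromosome 10 was Dcn, and 84.1 Mb separated them. H13 lay 30.1 Mb from Gatm on chromosome 2. The entry that the catalog names Meg1 and places on chromosome 2 lay 6.95 Mb from Sfmbt2, and its name was not checked. Slc38a4 was 23.9 Mb from 1810044A24Rik on chromosome 15. Rasgrf1 was the exception. The entry A19, also listed as paternally expressed, lay 45.7 kb away on chromosome 9, so Rasgrf1 was the only member with another entry within 1 Mb. A19 was the only other entry on that chromosome, so Rasgrf1 was part of a pair and of no large cluster in the catalog.

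The BxC library held 128944754 aligned reads and the CxB library 109719746, of which 6.47% and 6.20% were spliced. Xist had 142957 reads in BxC and 38 in CxB, whereas the Y-linked genes Ddx3y, Eif2s3y, Kdm5d and Uty were at 0 in BxC and had 602 to 2916 reads in CxB. These transcripts mark the BxC brain as female and the CxB brain as male, so cross, sex and individual cannot be told apart in any ratio. Brain markers were abundant: the neuronal Tubb3 stood at 974 reads per kilobase of exon, scaled to a library of 1000000 reads (RPKM), in BxC and 840 in CxB, and the radial glial Fabp7 at 152 and 160. The placental markers Tpbpa, Prl3b1 and Prl2c2 were at 0 in both libraries, where 3 reads are the most that a count of 0 allows, and no other gene of that list of 7 had more than 26 reads. A read was counted on either strand, since the strand of the gene held only 43.8% of its reads in BxC and 43.1% in CxB, as medians over genes that overlap no other.

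The sequences that carry the splicing results are given here in mm9 coordinates, read from the NCBIM37 genome on the plus strand. Dcn has 2 annotated first exons, a distal and a proximal one, and the 30 bases across each junction into exon 2 tell the transcripts apart. In the lines below, the capitals mark the first 15 bases of the exon that is joined, at chr10:96942409-96945987 for the distal and chr10:96945167-96945987 for the proximal first exon.
Dcn distal: tacccggattaaaagGTCGTGAAAATACAT
Dcn proximal: aaacttcttcagaagGTCGTGAAAATACAT

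Exon 1 of Rasgrf1 is joined either to exon 2 of the long transcript, at chr9:89805097-89818913, or to an exon of a short annotated transcript that ends inside intron 1, at chr9:89805097-89806300. The capitals again mark the joined exon.
Rasgrf1 long: tccggcgagaaacagCAACATTACTTCACA
Rasgrf1 short: tccggcgagaaacagCGTCATAGCAGGAGT

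In the coding part of the last exon of Zac1, spliced reads skip 63 bases of an imperfect tandem repeat with the 9-base unit GCAGCCAAT. The bases that remain at chr10:12847831-12847923 once the gap is closed are shown with the part after the gap in capitals.
Zac1 gap: atgctgccaatgcagCCAATGCAGCCAATG

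A single-nucleotide difference between the strains in Rasgrf1 was a pyrosequencing target of the study, and its C57BL/6J base is shown in capitals within chr9:89893527-89893555. Position 89893541 lies in coding sequence of exon 16 of 27.
Rasgrf1 SNP: gtccgaggatgaccAgaaccacagtgatg
The assay's forward primer, without its added tail of 24 bases, matched chr9:89893520-89893540 on the plus strand, its reverse primer chr9:89893574-89893593 and its sequencing primer chr9:89893543-89893560, both on the minus strand.
Forward: aagaagagtccgaggatgacc
Reverse: tggtggggatttaactggtg
Sequencing: gtcttcatcactgtggtt

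The 7 genes spanned a 14.9-fold range of levels in BxC and an 11.5-fold range in CxB. All levels below are RPKM with 95% intervals for counting error only. Impact, which restrains activation of the kinase Gcn2 under amino acid starvation and is abundant in neurons, was highest in BxC with 9.53 RPKM (9.24 to 9.82, 4217 reads) and stood at 7.36 (7.09 to 7.64, 2773 reads) in CxB. Gatm, the first enzyme of creatine synthesis, had 7.68 (7.40 to 7.96, 2970 reads) and 7.96 (7.66 to 8.27, 2622 reads), which made it the highest in CxB. Both genes stood well above the median protein-coding gene, at 1.57 RPKM in BxC and 1.58 in CxB.

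Zac1, a zinc finger transcription factor that can arrest the cell cycle, had 6.81 RPKM (6.65 to 6.98, 6404 reads) in BxC and 7.28 (7.10 to 7.47, 5826 reads) in CxB. Decorin, a small leucine-rich proteoglycan that binds collagen, had 5.99 (5.69 to 6.30, 1496 reads) and 5.43 (5.12 to 5.75, 1154 reads). Rasgrf1, a neuronal exchange factor that loads Ras with GTP, had 3.69 (3.54 to 3.85, 2249 reads) and 2.90 (2.75 to 3.05, 1503 reads). In each library the intervals of these 3 genes were apart from one another. Impact and Zac1 overlapped in CxB. This order depended on what was counted. By gene-strand reads Dcn (2.51) stood above Zac1 (2.43) in BxC, and over catalog exons Zac1 (9.31) stood above Impact (7.36) in CxB. Zac1 had 35.6% and 36.8% of its exon reads on its own strand, beside medians over genes of 43.8% and 43.1%.

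The remaining members were low. Slc38a4, a sodium-coupled transporter of neutral amino acids, had 0.670 RPKM (0.601 to 0.744, 348 reads) in BxC and 0.692 (0.617 to 0.774, 306 reads) in CxB. Sfmbt2, a Polycomb group protein with MBT domains, had 0.639 (0.594 to 0.686, 752 reads) and 0.693 (0.642 to 0.746, 694 reads). Their intervals overlapped in both libraries, and both genes stood between percentiles 41.3 and 42.0 of protein-coding genes by level. Both had 1.58 to 1.86 reads per position, fewer than the 2.23 to 3.63 of the other members. Values from distinct positions were scaled to the library's total of positions, 36575945 in BxC and 31155725 in CxB. They were 1.40 RPKM for Slc38a4 and 1.43 for Sfmbt2 in BxC, and 1.31 for Sfmbt2 in CxB. Because the scaling total differs, these values are no rise in level, and those of Zac1, Dcn, Gatm and Rasgrf1 were higher by positions too.

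**Figure D1:**
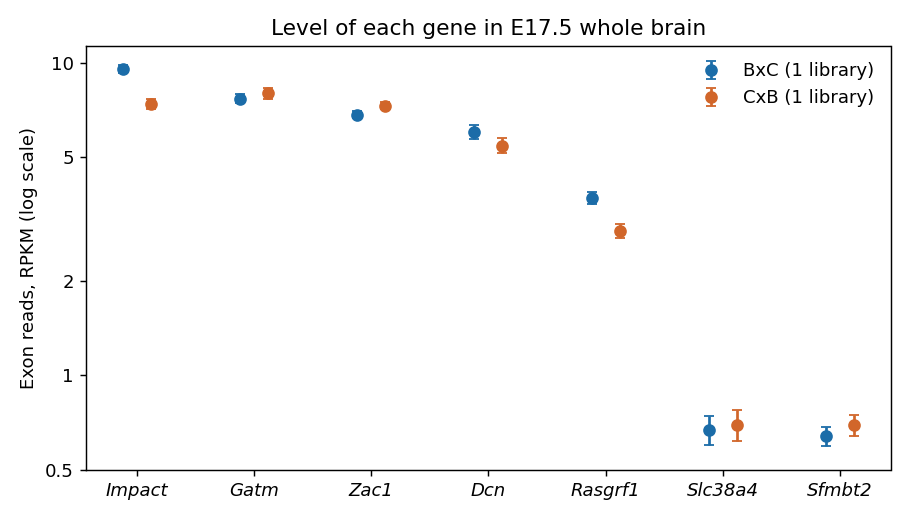
Level of each gene in RPKM on a log axis, with 1 point for each library and bars for the 95% Poisson interval of the read count. Impact (9.53 and 7.36) and Rasgrf1 (3.69 and 2.90) are the genes whose points are furthest apart, and Slc38a4 and Sfmbt2 lie below 0.8.

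None of the 7 genes differed by 1.5-fold between the libraries, a size that 1.1% of the 15427 genes with at least 100 reads in each library reached, 0.473% of them higher in CxB and 0.622% lower. The ratios below are log2 of CxB over BxC after scaling to library totals, with exact 95% intervals for counting error. The median of the 7 was 0.05, beside -0.00 over all genes and -0.03 over the 83 catalog entries with enough reads. By distinct positions the median of the 7 changed sign, to -0.12, beside 0.01 over all genes, so no direction is given for the group. Impact was lowest at -0.37 (-0.44 to -0.30), and Rasgrf1 followed at -0.35 (-0.44 to -0.25). These values are at the 2.70th and 3.23rd percentile of all genes, whose 5th to 95th percentiles ran from -0.29 to 0.28. Among the 10007 genes with at least 1000 reads in each library they were at the 0.580th and 0.789th percentile.

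Both low ratios moved when each position was counted once. Impact then stood at -0.14 (-0.27 to -0.02) and Rasgrf1 at -0.12 (-0.26 to 0.03), at the 11.9th and 15.5th percentile of genes counted the same way. Impact had 3.63 reads per position in BxC and 3.10 in CxB, and Rasgrf1 had 2.63 and 2.23, whereas the median gene had 2.83 in each library. The part of repeated fragments in these ratios was not tested. Markers of neurons, the cells in which both genes are best known, had a median ratio of 0.05 over the 5 of 6 that could be matched, between -0.21 for Tubb3 and 0.13 for Dcx.

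The other members were closer to 0. Zac1 had a ratio of 0.10 (0.05 to 0.15), Sfmbt2 0.12 (-0.03 to 0.27), Gatm 0.05 (-0.02 to 0.13) and Slc38a4 0.05 (-0.18 to 0.27). Sfmbt2 changed sign when each position was counted once, to -0.12 (-0.32 to 0.08), so no direction is given for it. Counted by distinct positions Zac1 had 0.07 (-0.02 to 0.16). The intervals of 4 of the 7 members, Impact, Rasgrf1, Dcn and Zac1, left out 0 by reads, as did those of 51.3% of all genes, and by positions only that of Impact did, beside 16.5% of all genes. A share of the members near that of all genes is no result about them.

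Dcn had a ratio of -0.14 (-0.25 to -0.03) by reads and of -0.13 (-0.32 to 0.06) by distinct positions, an interval that includes 0. Decorin is made by fibroblasts of the meninges, and 10 of 10 markers of these cells were measured, at a summed 127 RPKM in BxC and 118 in CxB. Their median ratio was -0.12, from -0.55 for Crabp2 to 0.03 for Zic1, with Col1a1 at -0.12 and Col3a1 at -0.35. No marker of this list was at 0. Pericyte and smooth muscle markers had a median of -0.11 over 6 genes and the red cell markers, Hba-a1, Hbb-b1 and Alas2 among them, -0.30 over the 3 of 5 with enough reads. The part of these cells in the Dcn ratio was not tested, and in whole brain fewer cells of a type and less RNA per cell cannot be told apart. The neighbouring proteoglycan gene Lum, 47.4 kb downstream and itself on the marker list, had 577 and 494 reads and a ratio of 0.01.

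**Figure D2:**
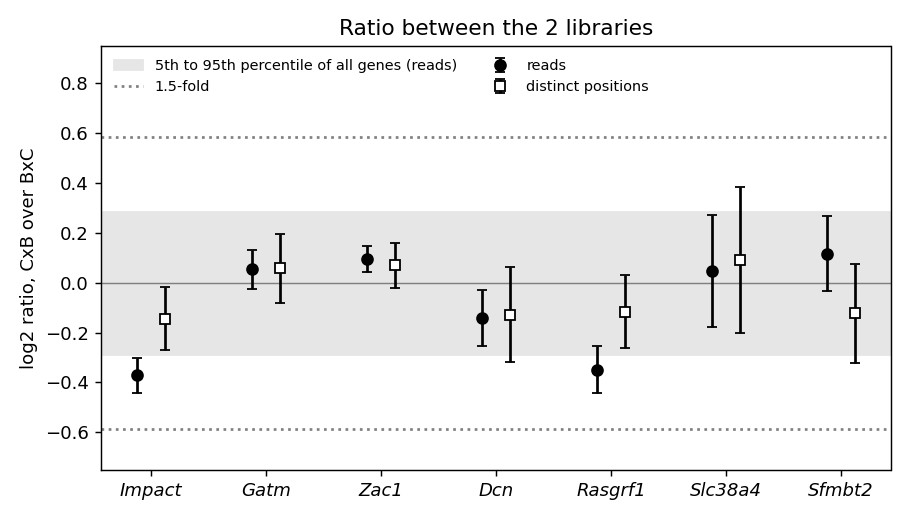
log2 ratio of CxB over BxC for each gene, from reads (filled circles) and from distinct positions (open squares), with exact 95% intervals, the 5th to 95th percentile range of 15427 genes in grey and 1.5-fold as dotted lines. Impact (-0.37) and Rasgrf1 (-0.35) lie below the grey range by reads and inside it by positions, and no gene reaches 1.5-fold.

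By reads the ratio of Impact was spread over most of the gene. Of its 11 exons 10 were lower in CxB, and 7 of them had intervals wholly below 0. The share of such exons over all genes was not computed, and over whole genes 51.3% of the intervals by reads left out 0. Exons 1, 3 and 4 had ratios of -0.71, -0.57 and -0.71, whereas exons 7, 9 and 10 had 0.19, -0.07 and -0.03. Exon 4 was the most deeply covered, with a mean depth of 171 reads in BxC and 89.0 in CxB. Its last exon, 71.6% of the exon length, held 56.5% and 57.0% of the reads of the catalog entry, at a ratio of -0.36 (-0.45 to -0.27). Exon 4 had 51 and 37 distinct positions and the last exon 695 and 545. The part of repeated fragments in the ratios of single exons was not tested. The neighbour Osbpl1a, 30.4 kb away, had 5079 and 4721 reads and a ratio of 0.13 (0.07 to 0.18), so by reads its interval and that of Impact were apart. Hrh4 on the other side was at 0 in both libraries.

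In Rasgrf1 the ratio by reads was uneven along the transcript. Of its 27 exons 20 were lower in CxB, and 7 had intervals wholly below 0. The last 3 exons were among those 7, at -0.71, -0.64 and -0.96. Over all genes the share of such exons was not computed, and 51.3% of whole-gene intervals by reads left out 0. Exon 25 had 232 and 121 reads at 41 and 33 distinct positions. Exon 26 had 37 and 25 positions, and exon 27 had 78 and 47. How far repeated fragments shaped these exon ratios was not tested. Exons 18 to 21, with 10 to 26 reads each, lay on the other side, between 0.68 and 1.00, with intervals that included 0. No exon had an interval wholly above 0. Ctsh, the cathepsin H gene 27.2 kb downstream, had 898 and 764 reads and a ratio of -0.00 (-0.14 to 0.14), and Ankrd34c on the other side had 69 and 61 reads, too few for the ratio.

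**Figure D3:**
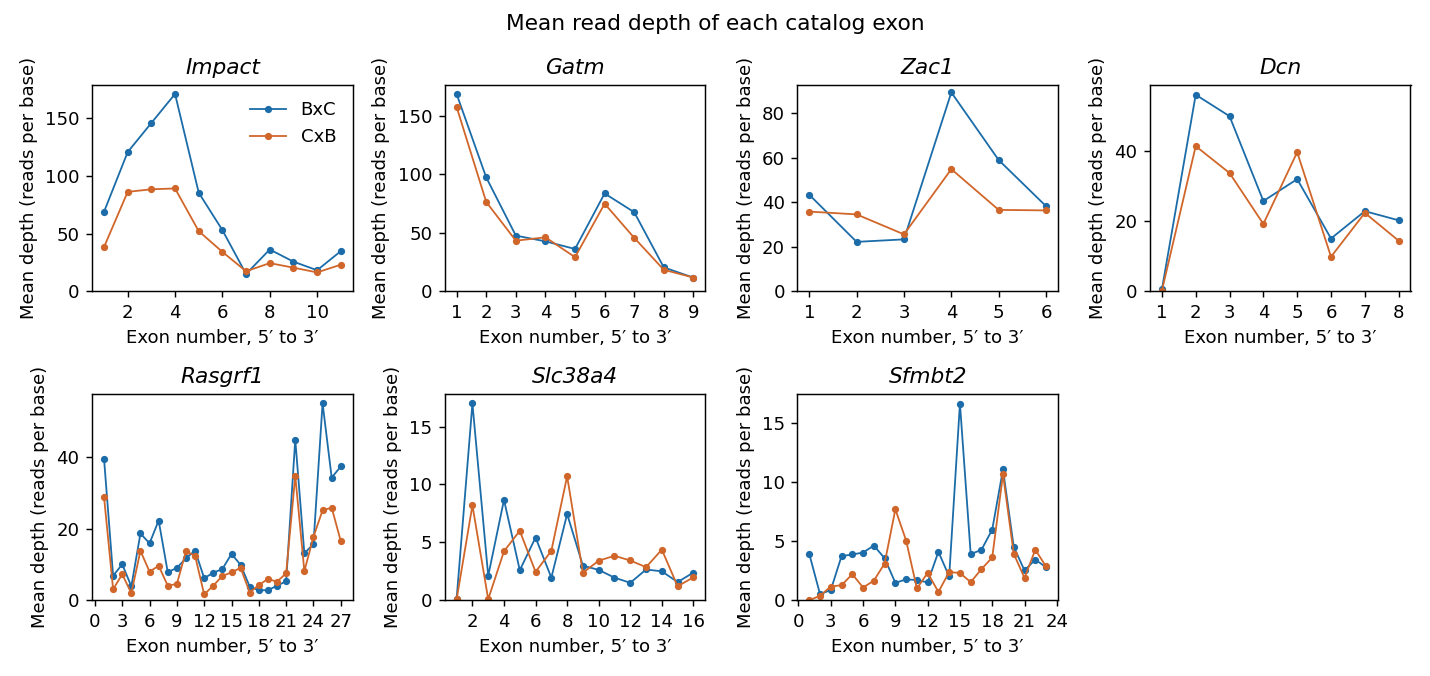
Mean read depth, in reads per base and not scaled for library size, of each catalog exon from 5′ to 3′, for BxC (blue) and CxB (orange), with a separate vertical scale for each gene. Impact peaks at exon 4 (171 and 89.0), Gatm at exon 1 (168 and 157), and Dcn has almost no reads on exon 1.

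All 93 introns of the catalog entries for the 7 genes were also in the annotation, and spliced reads showed how far each gene was covered. Impact had spliced reads at all 10 of its introns, 632 in BxC and 353 in CxB, and the first 3 introns carried 105, 94 and 334 of those in BxC and 44, 71 and 173 in CxB. Gatm had reads at all 8, with 102 and 114 in total and at most 27 at any intron. In Rasgrf1 22 of 26 introns in BxC and 24 of 26 in CxB had a spliced read, and the intron before exon 26 had the most in BxC with 69. Sfmbt2 was covered at 13 and 15 of 22 introns and Slc38a4 at 11 and 10 of 15. Zac1 had reads at all 5 of its catalog introns and Dcn at 6 of 7, in both libraries. At this depth Impact, Gatm and Zac1 were joined at every catalog intron, Dcn and Rasgrf1 at nearly all, and Sfmbt2 and Slc38a4 at a part of theirs.

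Dcn transcripts in both brains used the distal first exon. The junction from the distal exon to exon 2 had 35 reads in BxC and 20 in CxB. The junction from the proximal exon, which is exon 1 of the catalog entry, had 0 reads in both, where the limit is 3. Exon 1 of the catalog entry itself had 3 and 1 reads, against 459 and 302 on exon 2. The next intron was the most often spliced in Dcn, with 129 and 53 reads, and the last one had 67 and 45. Spliced reads made up 18.7% and 13.9% of its exon reads, the highest share of any member in BxC, where the median multi-exon protein-coding gene had 7.55%.

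Rasgrf1 exon 1 was joined to more than 1 partner. The junction to exon 2 had 9 reads at 4 positions in BxC and 6 at 3 positions in CxB, and the junction to the short transcript had 12 and 10 reads, at 2 positions in each. Another 2 reads at 2 positions and 7 reads at 4 positions joined exon 1 directly to the last exon of the short transcript, a combination that the annotation does not hold. By reads the short forms together exceeded the junction to exon 2 in both libraries, but by distinct positions they were level with it in BxC, so no order is given at these counts.

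Intron 1 of Rasgrf1 showed the same boundary. Its part within the span of the short transcript, which ends at chr9:89810685, had 967 reads in BxC and 1223 in CxB, or 191 and 241 reads per kb. The 8.213 kb beyond it had 24 and 62 reads, or 2.92 and 7.55 per kb. The 5′ part of intron 1 had more reads in CxB although the exons of the gene had fewer. These reads touched no annotated exon of the gene, those of the short transcript included. Unspliced RNA of the long and of the short transcript cannot be told apart there.

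**Figure D4:**
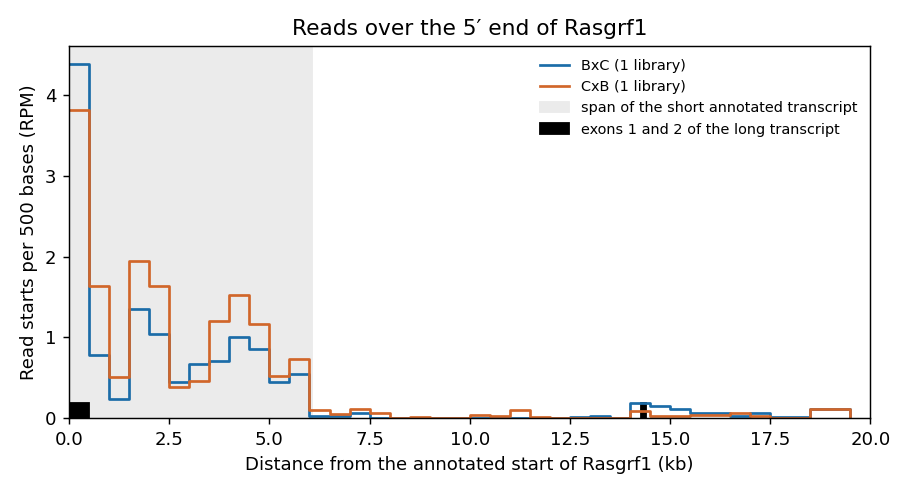
Read starts per 500 bases, scaled to 1000000 reads (RPM), over the first 20 kb of Rasgrf1 by distance from its annotated start, with the span of the short transcript shaded and exons 1 and 2 of the long transcript in black. Both libraries are covered up to the end of the shaded span, with 191 and 241 reads per kb outside exons, and the rest of intron 1 beyond it is thinly covered, with 2.92 and 7.55 reads per kb.

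The share of intron reads set Rasgrf1 and Sfmbt2 apart from the other members. They span 117.202 and 224.744 kb, the other members 16.837 to 61.134 kb, and the share is not scaled for intron length. The part of length in the share was not tested. The intron share is the percentage of a gene's reads that touch none of its exons, and its median over 13412 multi-exon protein-coding genes was 17.1% in each library. Rasgrf1 had 54.3% (52.9 to 55.7) in BxC and 62.4% (60.8 to 63.9) in CxB, at the 92.4th and 95.5th percentile of those genes. Sfmbt2 had 51.5% (49.0 to 54.0) and 55.1% (52.5 to 57.6), at the 90.9th and 92.6th percentile. Dcn was at the other end with 3.11% (2.30 to 4.10) and 1.45% (0.848 to 2.31). The other 4 genes lay between 13.3% and 19.4%. By distinct positions Dcn had 7.12% in BxC, Gatm 27.6% in BxC, and Impact 25.9% and 23.2%, and Rasgrf1 and Sfmbt2 still had the highest shares, from 55.0% to 65.1%.

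The intron reads of Rasgrf1 were concentrated in a few introns. Intron 1 held 37.0% of them in BxC and 51.6% in CxB, intron 5 held 22.6% and 18.3%, intron 24 held 15.8% and 13.3%, and intron 2 held 15.1% and 9.03%. Per kb these introns had 71.9 and 93.2, 44.0 and 33.2, 133 and 104, and 19.6 and 10.9 reads, in that order. Without the part of intron 1 inside the short transcript the intron share of the gene was 43.2% and 45.8%, still above the median gene. In Sfmbt2 the reads were spread more widely: the largest share was 23.7% and 23.2%, in intron 6. That intron had 6.07 and 6.19 reads per kb, beside 169 and 152 in intron 4 of Gatm. Sfmbt2 spans 224.744 kb, the longest of the 7. Zac1 intron reads lay mostly in introns 2 and 3, with 51.9% and 32.0% in BxC and 48.1% and 36.8% in CxB, and 46.5% and 50.6% of those of Gatm lay in intron 4.

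**Figure D5:**
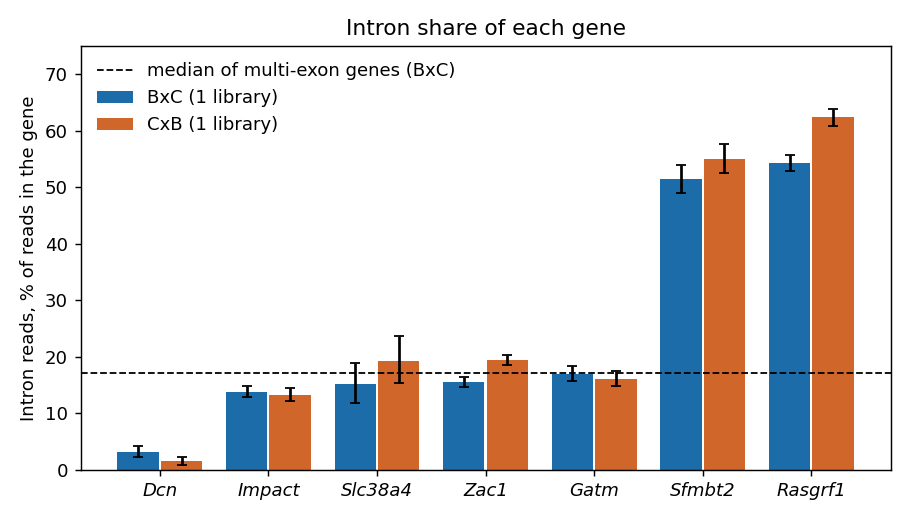
Intron share of each gene, in percent of its reads, for each library, with 95% Clopper-Pearson intervals and the median of multi-exon protein-coding genes in BxC as a dashed line. Rasgrf1 (54.3% and 62.4%) and Sfmbt2 (51.5% and 55.1%) stand above the line, and Dcn (3.11% and 1.45%) below it. Shares are not scaled for intron length.

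An intron of Sfmbt2 is known for a large array of microRNA genes, many of them near copies of each other. The annotation placed 119 microRNA genes inside its span. Reads fell on 8 of them in BxC and on 5 in CxB, 10 and 7 reads in all. These are polyA+ libraries of uniquely aligned reads, so mature microRNAs and repeated copies were not measured.

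The last of the 6 catalog exons of Zac1 held 75.7% of the gene's annotated exon reads in BxC and 79.0% in CxB. It made up 86.6% of the 5260 bases of catalog exons. The annotated exons cover 7289 bases, so the read shares and the length share cannot be compared. Exon 4 was the most deeply covered, with a mean depth of 89.2 and 54.8 against 38.2 and 36.3 on the last exon. Only 1.76% and 1.63% of its exon reads were spliced. The junction into the exon before the last had 33 and 14 reads and the junction into the last exon 25 and 12. Exon 1 was joined to exon 2 by 6 and 2 reads, and an annotated alternative exon inside that intron, which ends just before position 12811619, was joined to exon 2 by 0 and 10 reads, the latter at 4 positions. Exon 1 was joined to the alternative exon by 0 and 1 reads. By reads the ratio was uneven along the gene. Exons 2 and 3 had 0.82 (0.23 to 1.42) and 0.66 (0.07 to 1.27), on 42 to 63 reads each. Exons 4 and 5 had -0.52 (-0.82 to -0.22) and -0.46 (-0.66 to -0.26). The last exon had 0.16 (0.10 to 0.22), and its interval was apart from those of exons 4 and 5. Exon 4 had 67 and 50 distinct positions, exon 5 177 and 135, and the last exon 1663 and 1487. The part of repeated fragments in these exon ratios was not tested.

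The 63-base gap in the coding repeat of Zac1 had 24 reads in BxC and 19 in CxB, at 11 positions in each. It starts 18 bases from an annotated intron of the same length that had 0 reads. Closing either gap leaves the same sequence, with 0 bases that differ, so the positions cannot be told apart by alignment. The gap is 7 times as long as the repeat unit shown above and holds 4 exact copies of it. Whether it is spliced out or is absent from a copy of the gene cannot be told apart without bases or DNA.

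Gatm and Slc38a4 showed opposite 5′ ends. Exon 1 of Gatm was its most deeply covered exon, with a mean depth of 168 reads in BxC and 157 in CxB, against 11.8 and 11.9 on the last exon. The first exon of Slc38a4 had 1 read in each library, and 1 read in each joined it to exon 2, which had 68 and 32 reads. The last catalog exon of Sfmbt2 held 48.9% and 54.3% of the gene's annotated exon reads, and exon 1 of the gene had 7 and 0 reads. That last exon made up 62.3% of the 7594 catalog exon bases, whereas the annotated exons cover 9128, so these shares cannot be compared. Exon depths ranked alike in the libraries for Impact (Spearman's rho 0.99 over 11 exons, across exons of 1 gene, which are not replicates) and hardly at all for Sfmbt2 (0.13 over 23 exons). The median exon depth of Sfmbt2 was only 3.73 in BxC and 2.30 in CxB, beside 53.0 and 34.2 for Impact. The part of low depth in the weak ranking was not tested.

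The neighbours of the members gave a local background. Of the 14 nearest protein-coding genes, 1 on each side of each member, 8 had enough reads and 0 reached 1.5-fold, beside 1.1% of all genes. The lowest was Sf3b5 beside Zac1, with 3726 and 2823 reads and a ratio of -0.17, and the highest was Btg1 beside Dcn, with 2779 and 2915 reads and 0.30. Itih5 beside Sfmbt2 stood at -0.11, and Amigo2 and Slc38a2 beside Slc38a4 at 0.17 and 0.02. Both neighbours of Gatm were nearly silent, with 6 and 5 reads for AA467197 and 0 for Gm14085, as were Fam164b beside Zac1, with 1 and 0, and Gm10852 beside Sfmbt2, with 8 and 11. None of the 8 neighbours with enough reads was as low as Impact or Rasgrf1. Those 2 ratios were at the 2.70th and 3.23rd percentile of all genes, so for 8 genes this is no result about the neighbours.

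The strain SNP of Rasgrf1 was thinly covered. Position 89893541 was crossed by 7 reads at 4 positions in BxC and by 6 reads at 3 positions in CxB. Exon 16, which holds it, had 39 and 33 reads. Such depths are the most that an allelic count at this base could rest on in these libraries.

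RefSeq promoter windows (GRCm38.p6, 250 bases before to 50 after each start) were found for 5 of the 7 genes and were read for CpG content, the sites that DNA methylation acts on. The median of all 32851 windows was 7 CpG. Zac1 and Rasgrf1 had 26 each, Gatm had 22, and the windows of Sfmbt2 had 9 and 16. Slc38a4, with 3 windows, had 5 in each. The motif TGCCGC, the core letters bound by the zinc finger protein ZFP57, was searched on both strands and lay once in the Zac1 window and in none of the others. It was held by 11.6% of all windows.

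The genes that work with the 7 members gave a background of function. Of 77 genes in 7 lists 76 were annotated and 68 had enough reads, of which 1 was at least 1.5-fold higher in CxB, beside 0.473% of all genes, and 0 were lower. Their median ratio was 0.02. The exception was Ckm, the muscle creatine kinase, with 155 reads in BxC and 202 in CxB and a ratio of 0.62, in the list of creatine genes around Gatm. Skeletal muscle markers moved with it, with 3 of 6 genes above 100 reads at a median of 0.48 and a summed 2.17 and 3.24 RPKM, Ckm itself being one of them. Their part in the Ckm ratio was not tested. The brain creatine kinase Ckb was the highest of that list at 99.0 and 100 RPKM, and Gamt, the enzyme after Gatm, had 25.3 and 22.4.

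Within the other lists the members were seldom the highest genes. Among the genes tied to Zac1, the imprinted growth regulator RNA H19 was highest at 189 RPKM in BxC and 141 in CxB, with a ratio of -0.42, and the related factor Plag1 was lowest at 0.403 and 0.331. Among small leucine-rich proteoglycans and their partners Bgn was highest at 18.3 and 16.3 RPKM, above Dcn, and Kera was lowest at 0.0275 and 0.0185. Of the 8 genes of that list with enough reads the median ratio was -0.16, from -0.31 for Tgfb3 to 0.03 for Tgfb2. Lum is on both this list and that of the meningeal markers.

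For Sfmbt2, all 12 Polycomb and MBT genes had enough reads, with a median of 0.13 and levels from L3mbtl4, at 0.346 RPKM in BxC, to Hdac3, at 30.7 RPKM in BxC. For Rasgrf1, the Ras exchange factors and Ras proteins had a median of 0.06, with Rasgrp3 lowest at 0.888 and 0.816. Rasgrf2, the closest relative of Rasgrf1, stood at 3.46 and 4.17 RPKM with a ratio of 0.27, on the other side of 0. The Gcn2 pathway, which Impact restrains, had a median of -0.01 over 10 genes, with Atf4 highest at 53.4 and 52.6 RPKM and Eif2ak2 lowest at 0.555 and 0.537. Eif2ak4, which encodes Gcn2, had a ratio of -0.08. Of 10 amino acid transporters 8 had enough reads, with a median of 0.02, and Slc38a2, next to Slc38a4 on chromosome 15, was highest at 27.3 and 27.8 RPKM.

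Genes with the levels most like those of the members were named by distance in log2 RPKM over the 2 libraries. Zdhhc2 and Lmbr1l were nearest to Zac1, Mrps21 to Dcn, Rbm3 and Zkscan3 to Gatm, and Gm9781 and Alg6 to Sfmbt2. Nthl1 and 1700028P14Rik were nearest to Rasgrf1, Litaf and Fmod to Impact, and Slitrk6 and Hist2h4 to Slc38a4. Those named lay within 0.061 of their member on this scale, which with 2 libraries says only that their levels were alike.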

How the data were processed

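The deposited files hold, per the labels, mm9 alignments made with Novoalign (version not given in the sources used here) and the authors' catalog of imprinted genes. Each line carries a whole number that was taken as the count of identical reads behind it. The authors kept uniquely aligned reads of 36 bases and deposited these counts without normalization. Which of their alignments was deposited is not stated, and the meaning of that column was inferred from its values. Both library totals summed from it exceed the average number of reads per library that the paper states, and the reason was not tested. Catalog columns hold positions, exons and the expressed allele, as deposited by the authors in no unit of measurement. The number of columns of unassigned samples was 0.

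Reads were summed over exon unions of GENCODE vM1 on the same build, and 6 lines that end beyond chromosome 9 were kept. The study describes strand-specific libraries, and the design planned gene-strand counts. Because reads did not keep to the strand of the gene (median 43.8% and 43.1%), both strands were counted and each strand alone was an alternative. RPM uses the library total (128944754 and 109719746 reads), and RPKM also the exon length. Levels and ratios from distinct positions use the total of positions instead (36575945 and 31155725). Ratios needed 100 reads in each library. Intervals are exact, Poisson for levels, Clopper-Pearson for shares and conditional binomial for ratios, at 95%, and cover counting error only, since reads without molecular identifiers are not independent molecules. Intron reads were unspliced, touched no exon of the gene and lay outside other genes. Alternatives were distinct positions, catalog exons, other scalings and other read minimums. The ratio script was checked on simulated data. Named genes were the members, their nearest protein-coding neighbours, the highest and lowest of each partner list with any past 1.5-fold, and the 2 genes nearest in level to each member. Others were named after their values were seen. Some genes that this rule names are not reported here. The members and lists were chosen with earlier results of these data known. Python 3.11.15, scipy 1.17.1 and samtools 1.23.1 were used.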

Additional observations from a re-analysis of the deposited data

How the results depend on the processing

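No member reached 1.5-fold under any alternative, and no direction whose interval left out 0 was reversed. The median level was 5.99 RPKM in BxC and 5.43 in CxB by reads. By distinct positions, scaled to the total of positions, it was 7.37 and 6.74. Counting each position once raised the median intron share in BxC from 15.5% to 25.9%, and the median share on the gene strand from 41.8% to 49.1% in BxC and 49.6% in CxB. It lowered the catalog junction reads from 1402 to 481 and from 901 to 367, and left 4 members lower in CxB instead of 3, with a median ratio of -0.12 instead of 0.05. Reads of the gene strand alone gave median levels of 2.43 and 2.28 RPKM. With a minimum of 10 reads 7.74% of genes passed 1.5-fold, and with 1000 reads 0.160%. The ratios of 3 members left their interval with distinct positions, and under catalog exons, either strand alone (the opposite strand was added after seeing the data) and both other scalings all 7 stayed within it. In each library 5 of 7 kept their rank in level with distinct positions, with gene-strand reads and with catalog exons. No paired analysis was possible because each cross has 1 library and no test was made, and leaving out a library leaves no comparison. Depth limits Slc38a4 and Sfmbt2 most, with 306 to 752 exon reads.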
